A study of Xenopus laevis with 3 samples.

Results

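The sequences named here are the products of the miR-148 and miR-22 genes in dorsal tissue of *Xenopus laevis* gastrulae. They were taken as every listed sequence with a *X. laevis* or *X. tropicalis* name numbered as miR-148 or miR-22, which gave 4 of 175 *Xenopus*-named sequences and 4 of 1985 listed sequences in all. These are miR-148a (xtr-miR-148a) and miR-148b (xtr-miR-148b), both from the 3′ arm of their hairpins, and miR-22-3p (xtr-miR-22-3p) and miR-22-5p (xtr-miR-22-5p_R+2), the 2 arms of 1 hairpin. All 4 carry *X. tropicalis* names, which tell where the matching sequence was listed and not where a read came from. MiR-148a and miR-22-3p were singled out because both are abundant in uninjected tissue, higher with Fry-MO but lower with Lhx1-AS, so these levels and ratios are a description of the choice and no test of it.

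Small RNA was sequenced from 3 libraries, 1 for each condition. Uninjected embryos were compared with embryos that had received, in both dorsal blastomeres at the 4-cell stage, either 400 pg of Lhx1-AS, an antisense oligonucleotide directed against *lhx1* transcripts, or 20 ng of Fry-MO, a morpholino that blocks translation of *fry*. Each library holds dorsal tissue cut from 30 embryos at stage 10.5 and pooled from 3 experiments, and injected embryos were chosen by a fluorescent tracer that uninjected ones lacked. Since a control oligonucleotide was injected into none of the embryos sequenced, the effect of depletion and that of injecting and selecting embryos cannot be told apart. With 1 library per condition there is no spread between replicates and no p-value. Each interval below is a Clopper-Pearson 95% interval that covers counting error only. It is exact where the reads are whole and approximate where they are not. In pooled tissue, fewer cells of a type and less RNA per cell cannot be told apart. The comparison asked which miRNAs change when Lhx1, a transcription factor of the organizer, or Fry is depleted.

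A miRNA is cut from a hairpin precursor as a duplex of about the same length on both arms. One strand is usually kept in the silencing complex and the other is degraded, so that the kept arm is read far more often. The kept strand finds its target mRNAs mainly through its seed, bases 2 to 8, and miRNAs that share a seed are grouped as a family. The miR-148 family, with miR-148a, miR-148b and miR-152, is known in mammals for repressing DNA methyltransferases and is abundant in liver. MiR-22 is broadly expressed in vertebrates and is known in mammals for its high level in heart and skeletal muscle. In the early frog embryo the dominant miRNA is miR-427, which clears maternal mRNAs.

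The mature sequences are shown first, as deposited, because the seed sorts the members into families and because closely similar sequences had different levels. Capitals mark the seed. The first 4 share the seed of miR-148a and the last 2 that of miR-22-3p:
miR-148a: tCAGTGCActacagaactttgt
miR-148b: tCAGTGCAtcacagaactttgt
zebrafish-named miR-148: tCAGTGCAttacagaactttgt
cattle-named miR-152: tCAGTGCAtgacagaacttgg
miR-22-3p: aAGCTGCCagttgaagaactgt
zebrafish-named miR-22b: aAGCTGCCagctgaagaactgt

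Counted from the 5′ end, miR-148b differs from miR-148a only at C9T and T10C, just past the seed. The sequence named after a zebrafish miR-22b, as it was read here, differs from miR-22-3p only at T11C. The mature miR-148a, miR-148b and miR-22-3p are known to have the same sequence in mammals, so a frog read cannot be told from a mammalian one by sequence. The position of the hairpins in the frog genome was not looked up, for want of an annotation of miRNA genes.

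MiR-148a and miR-22-3p were the most read *Xenopus*-named sequences of uninjected dorsal tissue after miR-427 and the second product of its precursor. MiR-22-3p had 1900 raw reads in uninjected tissue, 950 after Lhx1-AS and 5342 after Fry-MO. MiR-148a had 1806, 795 and 5738 raw reads. Before any scaling, both thus had the most reads in the Fry-MO library and the fewest in the Lhx1-AS library. The Lhx1-AS library also had the fewest listed reads in all, 56026 against 133894 in uninjected tissue and 108041 with Fry-MO. Raw reads alone therefore do not show a lower level with Lhx1-AS. Their read totals were whole in every library, as were those of 68 of 96 *Xenopus*-named sequences with at least 10 reads. Whole totals give no sign of reads divided with another listed sequence, but divided reads can also sum to whole numbers. Both miRNAs were read exactly as listed, with no base added or changed, as were 44 of these 96.

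MiR-22-3p had rank 3 among *Xenopus*-named sequences of uninjected tissue and miR-148a rank 4, with miR-199a-5p next at 554.5 raw reads. After Lhx1-AS they ranked 5 and 6, behind miR-199a-5p (1322.5 reads) and miR-27b (1322.3 reads), with miR-191 next at 553. After Fry-MO miR-148a had rank 2, next to miR-427, with miR-181a-5p (5492.5 reads) and then miR-22-3p behind it. Among all listed sequences, predicted ones included, miR-22-3p had ranks 6, 9 and 5 in uninjected, Lhx1-AS and Fry-MO tissue. MiR-148a had ranks 7, 10 and 3 there. The order of the pair turned between libraries. MiR-148a made up 48.7% (47.1 to 50.4) of the reads of both in uninjected tissue, 45.6% (43.2 to 47.9) after Lhx1-AS and 51.8% (50.9 to 52.7) after Fry-MO, and this share needs no scaling between libraries. In the uninjected library the interval holds equal parts, so the order of the 2 is not resolved there.

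As a share of all listed reads, miR-148a took 1.35% (1.29 to 1.41) in uninjected tissue, 1.42% (1.32 to 1.52) after Lhx1-AS and 5.31% (5.18 to 5.45) after Fry-MO. MiR-22-3p took 1.42% (1.36 to 1.48), 1.70% (1.59 to 1.81) and 4.94% (4.82 to 5.08). Together they went from 2.77% of the listed reads in uninjected tissue to 3.11% with Lhx1-AS and 10.3% with Fry-MO. By this measure neither was lower with Lhx1-AS.

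**Figure D1:**
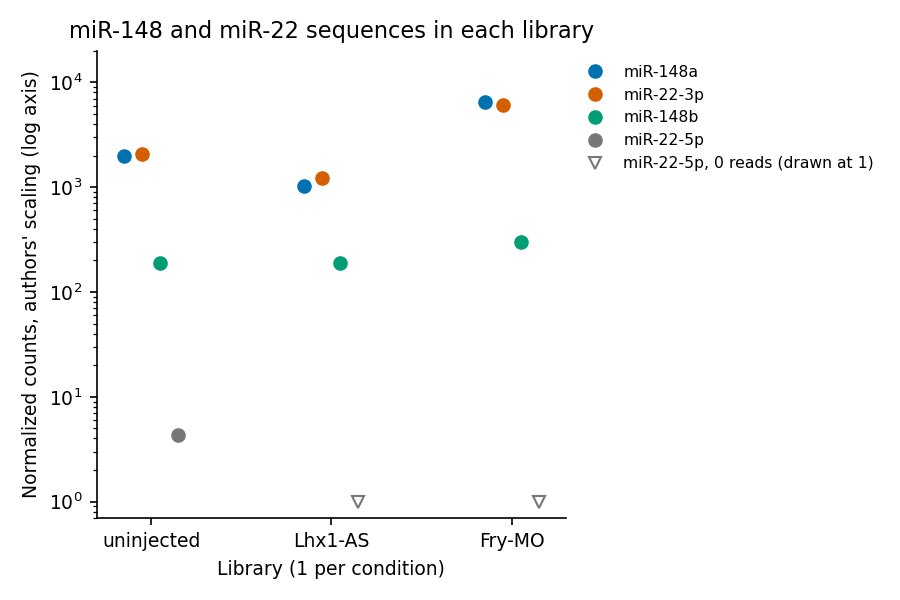
Normalized counts (authors' scaling, log axis) of the 4 sequences in each library, 1 point per library and no error bars, since each condition has 1 library. MiR-148a and miR-22-3p sit at 1961.7 and 2063.8 in uninjected tissue, between 1027.8 and 1228.2 with Lhx1-AS and between 6091.3 and 6542.8 with Fry-MO, while miR-148b stays between 187.5 and 297.6.

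The authors' normalization divides raw reads by a library size parameter, which was 0.921 without injection, 0.773 after Lhx1-AS and 0.877 after Fry-MO. In these units miR-148a had 1961.7 normalized counts in uninjected tissue, 1027.8 with Lhx1-AS and 6542.8 with Fry-MO. MiR-22-3p had 2063.8, 1228.2 and 6091.3. The level with Fry-MO set against Lhx1-AS was 6.37-fold higher (5.91 to 6.86) for miR-148a and 4.96-fold higher (4.63 to 5.32) for miR-22-3p. Both ratios to the uninjected library were further from 1 for miR-148a than for miR-22-3p, at 3.34 (3.16 to 3.52) against 2.95 (2.80 to 3.11) with Fry-MO and at 0.524 (0.481 to 0.570) against 0.595 (0.550 to 0.644) with Lhx1-AS. The intervals of the 2 miRNAs overlap with Lhx1-AS and not with Fry-MO.

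Most *Xenopus* miRNAs were higher with Fry-MO, and miR-148a and miR-22-3p were not among the strongest. Of 93 *Xenopus*-named sequences with at least 10 raw reads in either library, 64 stood at least 2-fold higher with Fry-MO than in uninjected tissue, a share of 68.8%, and these include miR-148a and miR-22-3p. A ratio above 1 was found for 77.4% of the 93 and one of at most 0.5 for 9.68%. From the highest ratio down, miR-148a stood at place 57 of the 93 and miR-22-3p at place 60, under a median ratio of 4.04. A sequence could enter the 93 through its Fry-MO reads alone, which can raise these shares and this median. Among the 20 *Xenopus*-named sequences most read in uninjected tissue, 12 were at least 2-fold higher and the median ratio was 3.28. That lies between the ratios of miR-22-3p and miR-148a, but both are themselves among the 20 and enter the median. Its place between them is therefore a description and no test. With Lhx1-AS miR-148a and miR-22-3p lay near the other end of the order, at places 8 and 12 from the lowest of 79, where the median ratio was 1.28. None of the members passed the 2-fold limit downward there, which 5 of the 79 did (6.33%), while 32.9% were at least 2-fold higher, and 29 of the 79 had a ratio below 1 (36.7%). A sequence could enter the 79 through its Lhx1-AS reads alone, which can raise the share of higher ones and the median. Of the 20 most read in uninjected tissue, 10 had a ratio below 1 with Lhx1-AS and 10 above 1. Of these 20, 4 were at most 0.5 and 3 at least 2-fold higher, with a median ratio of 1.02. Places in the order do not change with the scaling, which multiplies every ratio of a comparison by the same factor. Set against Lhx1-AS directly, 53 of 96 stood at least 2-fold above it with Fry-MO (55.2%) and 9.38% at most 0.5, and miR-148a stood at place 22 and miR-22-3p at place 28 from the highest.

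A ratio above 1 with Fry-MO and below 1 with Lhx1-AS was found for 17 of the 75 *Xenopus*-named sequences with enough reads in both comparisons (22.7%), but only for 1 when scaled to listed reads and for 3 when scaled to *Xenopus*-named reads. The count leaves out counting error, and some ratios lie close to 1, such as 0.986 (0.786 to 1.24) for miR-148b with Lhx1-AS. MiR-148a, miR-148b and miR-22-3p are 3 of the 17, and since the first and the last were chosen for this pattern their count is no result. By raw reads in uninjected tissue miR-22-3p and miR-148a come first among them, with miR-181a-5p next at 361.5 reads. In this group of 17, 12 had a larger ratio with Fry-MO than miR-22-3p and 9 a larger one than miR-148a, led by miR-126-5p, of endothelium, at 21.0. With Lhx1-AS only let-7i, with 16 reads in uninjected tissue and 6 with Lhx1-AS, had a lower ratio than miR-148a, at 0.446.

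The miRNA nearest to both in its pair of log2 ratios was miR-30b, of a family known from kidney epithelium. It had 129, 59 and 389 raw reads in uninjected, Lhx1-AS and Fry-MO tissue, with ratios of 0.544 with Lhx1-AS and 3.17 with Fry-MO. Its distance, in log2 units over the 2 ratios with a pseudocount of 1 normalized count, was 0.10 from miR-148a and 0.15 from miR-22-3p, less than the 0.25 between these 2. Let-7f, with 44, 22 and 197.3 reads, lay at 0.52 from miR-148a and 0.65 from miR-22-3p, and miR-30c at 0.67 and 0.43, so that let-7f was the nearer of these to miR-148a and miR-30c the nearer to miR-22-3p. MiR-10b lay at 0.84 and 0.67. These were the nearest of 74 *Xenopus*-named sequences with at least 50 reads over the 3 libraries. With a pseudocount of 10, let-7i (0.68) was among the 5 nearest to miR-148a in place of miR-10b. MiR-30c and let-7f then lay at 0.48 and 0.49 from miR-22-3p. No counting error was computed for the distances, so the order of close ones is not resolved. All points share the same 3 libraries, so likeness here is a description over 2 ratios.

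**Figure D2:**
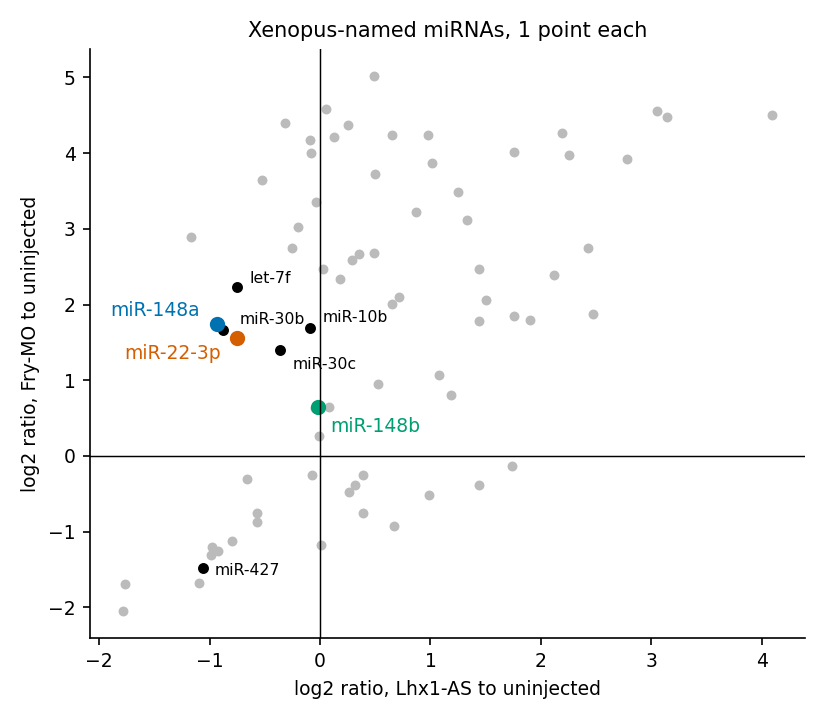
Log2 ratios of normalized counts to the uninjected library for 75 *Xenopus*-named miRNAs, Lhx1-AS on the horizontal and Fry-MO on the vertical axis, 1 point per miRNA and no error bars. MiR-148a (-0.93, 1.74) and miR-22-3p (-0.75, 1.56) lie in the upper left with miR-30b between them, miR-148b lies near 0 on the Lhx1-AS axis, and most other points lie above 0 on the Fry-MO axis.

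How large the ratios are, and on which side of 1 those with Lhx1-AS fall, depends on the scaling. The ratio of miR-148a with Fry-MO ran from 1.36 to 4.72 over the 7 scalings computed and that of miR-22-3p from 1.21 to 4.18, always above 1. The lowest values came from scaling to the listed reads without the 3 most read sequences, where neither was 2-fold higher. With Lhx1-AS the ratio of miR-148a ran from 0.473 with TMM to 1.05 (0.967 to 1.14) when scaled to the listed reads, and that of miR-22-3p from 0.537 to 1.19 (1.10 to 1.29). Scaled to *Xenopus*-named reads they were 0.881 (0.809 to 0.958) and 1.001 (0.925 to 1.08). Listed reads were 4.24% of mappable reads in uninjected tissue, 2.29% after Lhx1-AS and 5.08% after Fry-MO, so that scaling to listed or to mappable reads gives different answers. Between the depleted libraries the order held under all 7, with miR-148a 2.40 to 8.32-fold and miR-22-3p 1.87 to 6.48-fold higher with Fry-MO than with Lhx1-AS.

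**Figure D3:**
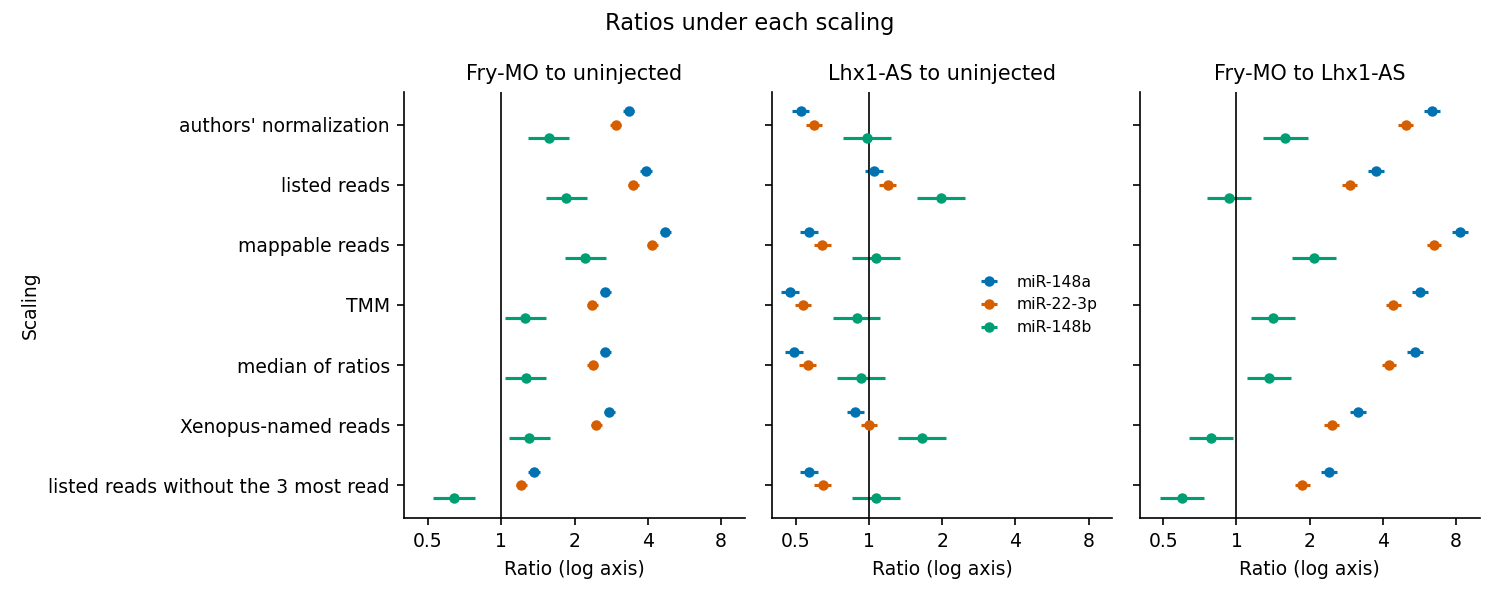
Ratios (log axis) of miR-148a, miR-22-3p and miR-148b in the 3 comparisons under 7 scalings of the same raw reads, with exact 95% counting intervals as bars and the vertical line at 1. In the Fry-MO panels miR-148a and miR-22-3p stay right of 1 under every scaling, with Lhx1-AS they lie left of 1 except when scaled to listed reads and, for miR-22-3p at 1.001, to *Xenopus*-named reads, and miR-148b changes side in each panel.

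MiR-148b, which has the seed of miR-148a, moved less. It had 175 raw reads in uninjected tissue, 145 after Lhx1-AS and 261 after Fry-MO, and ranked 15, 20 and 32 among *Xenopus*-named sequences. Its ratio was 1.57 (1.29 to 1.91) with Fry-MO and 0.986 (0.786 to 1.24) with Lhx1-AS, and both change side with the scaling, from 0.640 to 2.22 and from 0.890 to 1.98. Within a library, where no scaling enters, miR-148a had 10.3 reads per read of miR-148b in uninjected tissue (8.83 to 12.1), 5.48 after Lhx1-AS (4.59 to 6.59) and 22 after Fry-MO (19.4 to 25). As miR-148a was chosen for being high with Fry-MO and low with Lhx1-AS, this order describes the choice.

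How far miR-427 led over the pair differed between the libraries. MiR-427 had 38438, 15455 and 13081 raw reads in uninjected, Lhx1-AS and Fry-MO tissue, and 41752.2, 19981.4 and 14915.7 normalized counts. It was thus itself lower in both depleted libraries with the authors' normalization, and the comparisons below depend on its level too. Per read of miR-148a there were 21.3 reads of miR-427 in uninjected tissue (20.3 to 22.3), 19.4 after Lhx1-AS (18.1 to 20.9) and 2.28 after Fry-MO (2.21 to 2.35). Per read of miR-22-3p there were 20.2 (19.3 to 21.2), 16.3 (15.2 to 17.4) and 2.45 (2.37 to 2.53). Relative to the dominant miRNA, miR-148a with Lhx1-AS was thus within counting error of uninjected tissue or slightly above it, and miR-22-3p was above it.

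No *Xenopus*-named miR-152 is listed, the remaining member of the miR-148 family. Of 24 listed sequences named miR-148, miR-152 or miR-22 in any species, 21 had reads, and 17 of these were named after another animal. The cattle-named miR-152 had 4.33 raw reads in uninjected tissue, 7.67 after Lhx1-AS and 43 after Fry-MO, a ratio with Fry-MO of 10.4 (3.91 to 37.5). That interval is not exact, as the reads are not whole. The zebrafish-named miR-148 had 4.5, 6 and 6.5 reads. Over all 7 listed sequences with the miR-148a seed, miR-148a itself held 90.7% of the reads in uninjected tissue, 83.3% after Lhx1-AS and 94.8% after Fry-MO.

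The seed of miR-22-3p was found in 4 listed sequences, of which miR-22-3p held 98.4%, 97.2% and 99.2% of the reads. The close variant named after zebrafish miR-22b, printed above, had 27, 25 and 39 raw reads. With the authors' normalization, its ratio of 1.52 (0.905 to 2.58) with Fry-MO and of 1.10 (0.613 to 1.97) with Lhx1-AS held 1 in both intervals. Other scalings shift these intervals and were not computed for this sequence. It made up 1.40% (0.925 to 2.03) of the reads of both forms in uninjected tissue, 2.56% (1.67 to 3.76) after Lhx1-AS and 0.725% (0.516 to 0.989) after Fry-MO. The intervals of the depleted libraries do not overlap each other, while that of the uninjected library overlaps both.

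The opposite arms are shown next because the listed 5′ forms of miR-148a differ between species names. The mature miR-148a has the same sequence in frog and mouse. No *Xenopus*-named 5′ arm of miR-148a is listed here, and its reads appear under chicken, mouse and dog names. In the pair of miR-148a-5p forms the capitals mark the bases that differ:
chicken-named miR-148a-5p: aaagttctgTgacactTcgact
mouse-named miR-148a-5p: caaagttctgAgacactCcgact
*Xenopus*-named miR-22-5p: agttcttcagtggcaagctttat

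Counted from the 5′ end of the chicken-named form, and setting aside the extra first base of the mouse-named one, the changes are T10A and T17C. The chicken-named form is itself a read that departs from the listed chicken sequence at 2 bases. It had 8 raw reads in uninjected tissue, 1 after Lhx1-AS and 2 after Fry-MO. The mouse-named form had 0.333, 0.5 and 16.8 reads, and a dog-named form, which carries an unread base, had 0.333, 0.5 and 15.2. The 5′ arm thus appeared mostly as one form in uninjected tissue and mostly as the other with Fry-MO.

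As a share of its reads and those of miR-148a, the chicken-named form was 0.441% (0.191 to 0.867) in uninjected tissue, 0.126% (0.00318 to 0.698) after Lhx1-AS and 0.0348% (0.00422 to 0.126) after Fry-MO. The mouse- and dog-named forms together were 0.0369% (0.000188 to 0.275), 0.126% (0.00318 to 0.698) and 0.553% (0.379 to 0.781). For either group the intervals of the uninjected and Fry-MO libraries do not overlap. The mouse- and dog-named reads are not whole in any library, though their sum with Lhx1-AS is 1, so their intervals are approximate. The mature miR-148a, with the same sequence in frog and mouse, was 3.34-fold higher in the Fry-MO library than in uninjected tissue with the authors' normalization. Whether the reads of the 5′ arm and this ratio are linked was not tested.

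MiR-22-5p had 4 raw reads in the uninjected library and none in either depleted library. It made up 0.210% (0.0573 to 0.537) of the reads of both arms in uninjected tissue. With a limit of 3 reads, 0 of 5342 reads of both arms with Fry-MO gives a share of up to 0.0562%. In the same way 0 of 950 with Lhx1-AS gives up to 0.316%. The exact upper bounds are higher, at 0.0690% with Fry-MO and 0.388% with Lhx1-AS. Both lie above the lower bound of 0.0573% in uninjected tissue, the one with Fry-MO only just. Overlap of intervals does not show that the arm shares are equal, and with 4 reads in all a difference was not tested. A flounder-named miR-22-5p, from *Paralichthys olivaceus*, had 1 read, also in the uninjected library. The 5′ arm of miR-148b, under an anole name, had 7, 3 and 21 reads, and made up 3.85% (1.56 to 7.76), 2.03% (0.420 to 5.81) and 7.45% (4.67 to 11.2) of the reads of both arms, with all 3 intervals overlapping.

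**Figure D4:**
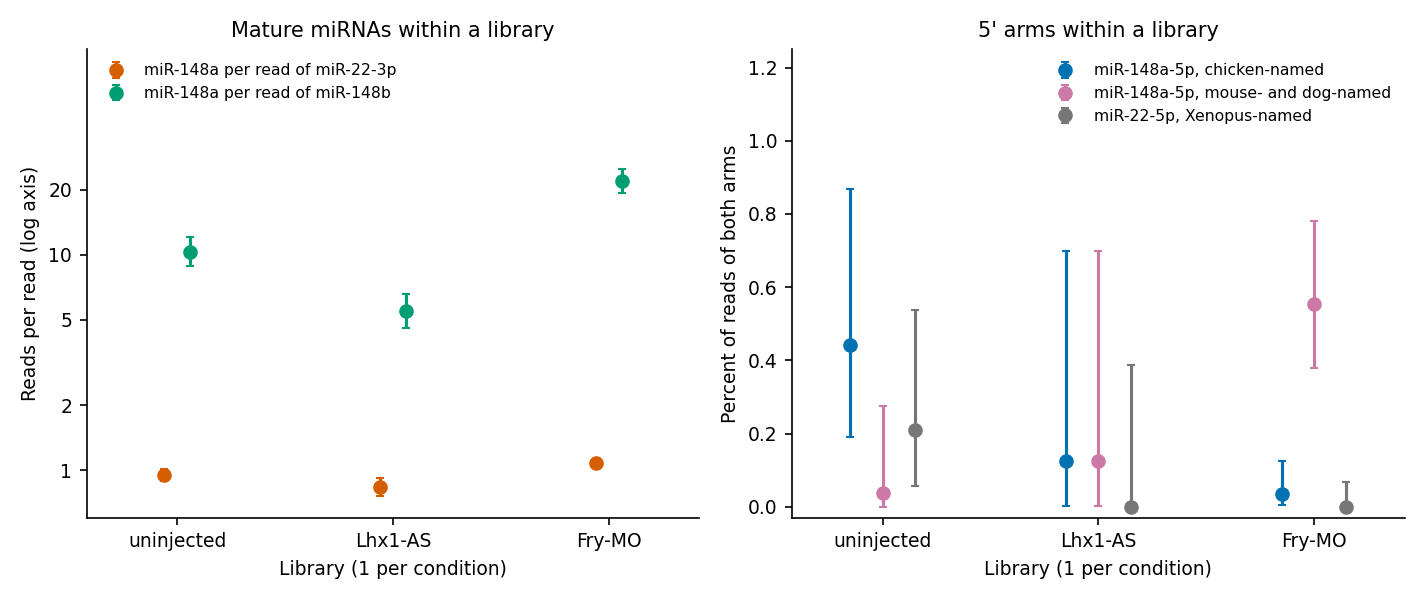
Left, reads of miR-148a per read of miR-22-3p and of miR-148b in each library (log axis). Right, 5′-arm forms as a percent of the reads of both arms. Bars are 95% counting intervals, 1 library per condition. They are exact except for the mouse- and dog-named forms, whose reads are not whole and whose intervals are approximate. MiR-148a per read of miR-148b goes from 10.3 in uninjected tissue to 5.48 with Lhx1-AS and 22 with Fry-MO, and the chicken-named 5′ arm of miR-148a is highest in the uninjected library while the mouse- and dog-named forms are highest with Fry-MO.

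Other groups of sequences also differed between the libraries, and no sum given here was lower with Lhx1-AS and higher with Fry-MO in normalized counts as the pair was. Single members of the blood and endothelium list were, with ratios of 0.696 and 12.5 for miR-451, 0.802 and 21.0 for miR-126-5p and 0.974 and 10.2 for miR-144. Their raw reads in uninjected and Lhx1-AS tissue were few, at 53 and 31, 46 and 31, and 11 and 9. No counting interval was computed for these ratios, so a lower level with Lhx1-AS is not resolved. Only 1 *Xenopus*-named sequence kept the opposite pattern when scaled to listed reads. MiR-142 and miR-126-3p of that list had ratios above 1 in both depleted libraries with the authors' normalization. With Lhx1-AS their log2 ratios were 0.126 and 0.650. No counting interval was computed for these either, so a higher level with Lhx1-AS is not resolved. Listed reads numbered 133894 without injection, 56026 after Lhx1-AS and 108041 after Fry-MO. Sequences named after placental mammals took 1.97%, 12.6% and 13.9% of them, and predicted sequences 54.0%, 33.1% and 19.2%. In normalized counts, 8 sequences of blood and endothelium, with reads for all 6 miRNAs of that list, summed to 393.2, 444.8 and 5440.2, and 9 neural and sensory ones, with reads for all 7 of the list, to 81.1, 99.1 and 1676.2. Of the 3 muscle miRNAs, miR-1 and miR-206 had no *Xenopus*-named read and miR-133 summed to 1.09, 1.29 and 11.4, and miR-122, of liver, had 13.0, 29.7 and 22.8. Rodent X-linked miRNAs, which frogs are not known to have, summed to 13.0, 2350.5 and 23.9. Early embryo miRNAs, which mark the labelled tissue, summed to 50207 normalized counts in uninjected tissue, against 22602 after Lhx1-AS and 17527 after Fry-MO. In uninjected tissue miR-427 alone gave 41752 of these and the second product of its precursor 7990, so the sum follows miR-427. With Lhx1-AS the log2 ratio of miR-427 was -1.06. Those of miR-428 (31 reads in uninjected tissue) and of a miR-302 product (24 reads) were 1.74 and 0.67. The part of these groups in the levels of miR-148a and miR-22-3p was not tested.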

How the data were processed

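Dorsal tissue of *X. laevis* gastrulae was pooled into 1 small RNA library per condition and sequenced on an Illumina GAIIx. The authors cut the 3′ adapter, kept reads by length and matched them, with the ACGT101-miR program, against chordate miRNAs of miRBase and against frog and other genomes, with no release given in the sources used here. Raw reads per sequence were deposited in the form of expected counts, since a read that fits several listed sequences was divided among them, with a normalized signal, the raw reads divided by a library size parameter of unstated origin. They also deposited the number of reads at each step as other values. Of an index of 1987 sequences, 2 lines were not analysed here.

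The members and all lists were chosen with earlier results of these data known. Ratios were taken from normalized counts, with Clopper-Pearson intervals at 95% from raw reads. Sequences with at least 10 raw reads in 1 of the libraries compared entered the counts, a library at 0 was set to 3 reads for these counts, and ratios of 2 or more and of 0.5 or less were counted. The sequences named were all members, miR-148, miR-152 and miR-22 sequences of any species with at least 10 reads in a library, neighbours in rank, the 5 nearest in log2 ratios and the most read one. The zebrafish-named miR-148, the chicken-named and flounder-named 5′ arms, let-7i and miR-181a-5p where they fall outside this rule were named after their values were seen. So were the single miRNAs named from the blood and endothelium list. A share at 0 was limited by 3 reads. The alternatives were scaling to listed, mappable or *Xenopus*-named reads, to listed reads without the 3 most read sequences, by TMM (edgeR 4.0.16) or by median of ratios (DESeq2 1.42.0) on raw reads rounded to whole numbers, other filters and folds, and relatives summed. No test was run with edgeR or DESeq2. The interval calculation was tested on simulated data. Python 3.11.15, pandas 2.3.3, numpy 2.4.6, scipy 1.17.1, matplotlib 3.10.9 and R 4.3.3 were used.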

Additional observations from a re-analysis of the deposited data

Results flagged for a closer look

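MiR-148a and miR-22-3p are listed here because their ratios to the uninjected library lay on opposite sides of 1 in the 2 depleted libraries with the authors' normalization. The ratio of miR-148a was 3.34 with Fry-MO and 0.524 with Lhx1-AS, and that of miR-22-3p was 2.95 and 0.595. The difference between the conditions was not tested, as each is 1 library, and both miRNAs were chosen for this pattern.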

How the results depend on the processing

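No paired analysis was possible because each condition has 1 library, and for the same reason no library could be left out. Scaled to listed reads, to mappable reads, by TMM, by median of ratios, to *Xenopus*-named reads and to listed reads without the 3 most read, in this order, the Fry-MO to uninjected ratio was 3.94, 4.72, 2.68, 2.68, 2.78 and 1.36 for miR-148a and 3.48, 4.18, 2.37, 2.37, 2.46 and 1.21 for miR-22-3p. The Fry-MO to Lhx1-AS ratio was 3.74, 8.32, 5.66, 5.43, 3.16 and 2.40 for miR-148a and 2.92, 6.48, 4.41, 4.23, 2.46 and 1.87 for miR-22-3p. The Lhx1-AS to uninjected ratio left its counting interval for miR-148a at 1.05 (listed), 0.473 (TMM) and 0.881 (*Xenopus*-named), and for miR-22-3p at 1.19 (listed), 0.644 (mappable), 0.537 (TMM), 1.001 (*Xenopus*-named) and 0.646 (without the 3 most read). With all 3′-arm sequences named miR-148 in any species summed, miR-148b included, the Fry-MO to Lhx1-AS ratio of miR-148a was 5.60.

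Of the counts over all *Xenopus* miRNAs, those at least 2-fold higher with Fry-MO than uninjected went from 64 to 42 without the 3 most read, and those at most 0.5 from 9 to 3 (mappable), 23 (without the 3 most read) and 1 (at 4-fold). With Lhx1-AS, those higher went from 26 to 50 (listed), 44 (*Xenopus*-named), 12 (at least 50 reads) and 11 (4-fold), and those lower from 5 to 0 (listed), 3 (mappable), 10 (TMM), 9 (median of ratios), 2 (*Xenopus*-named), 3 (without the 3 most read), 10 (no filter), 14 (1.5-fold) and 0 (4-fold). Between Fry-MO and Lhx1-AS, those higher went from 53 to 24 (without the 3 most read), and those lower from 9 to 21 (listed), 26 (*Xenopus*-named), 35 (without the 3 most read), 1 (at least 50 reads) and 1 (4-fold). MiRNAs above 1 with Fry-MO but below 1 with Lhx1-AS went from 17 to 1 (listed), 11 (mappable), 3 (*Xenopus*-named) and 10 (without the 3 most read). The cause was not tested.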
